A study of Mus musculus with 34 samples.

Results

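The GABA and glycine signalling genes were a set of 30 genes taken by symbol from the bulk RNA-seq count table of the mouse dorsal hippocampus, which holds 54532 genes. The set names subunits of the GABA-A, GABA-B and glycine receptors, the enzymes that make and degrade GABA, vesicular and plasma membrane transporters, postsynaptic proteins and chloride cotransporters. The rule used gene symbols and no measured value. The samples were 8 adult male C57BL/6J mice of 2 to 3 months of age, with 1 library per mouse and no transgene, virus or drug in either group. The 4 homecage mice stayed in their cages, and the 4 SOR mice were trained in spatial object recognition, a task in which a mouse learns where objects stand in an open field, and were euthanized 1 h after the last trial. The comparison asks which genes differ in the dorsal hippocampus at this early time of memory consolidation. Libraries held 51406011 to 81525977 estimated counts, and all 30 symbols were present in the table. Markers of CA1, CA3 and dentate granule cells were found in every library. The CA1 sum was 322 to 368 CPM (read counts per 1000000, scaled by the upper quartile). The CA3 sum was 399 to 432 CPM, of which *Dkk3* alone held 312 to 341 CPM. The dentate granule sum was 471 to 576 CPM. After the filter on low counts 22018 genes were tested, among them 26 members.

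GABA is the main inhibitory transmitter of the forebrain. It is made from glutamate in interneurons, loaded into vesicles and released onto GABA-A receptors, which are chloride channels of 5 subunits, and onto GABA-B receptors, which act through G proteins. The effect of opening a chloride channel depends on how much chloride the neuron holds, which is set by cotransporters. Glycine uses related channels, whose beta subunit is anchored by the same scaffold, gephyrin, that clusters GABA-A receptors. Learning in the hippocampus is known to engage interneurons, and the subunit makeup of GABA-A receptors separates synaptic from extrasynaptic inhibition.

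Of the 26 tested members, 0 passed an adjusted p of 0.05 in the quasi-likelihood test of edgeR, so no GABA or glycine signalling gene rose or fell in SOR mice by this test. Over all 22018 genes, 0.309% had an adjusted p under 0.05, and 0.173% also had a fold change above 1.4, the size used to call a gene. Without adjustment 1 member, the glycine receptor subunit *Glra3*, had a p under 0.05, which is 3.85% of the tested members against 10.1% of all genes. DESeq2 and limma-voom also placed 0 members past the adjusted threshold. In the same libraries 9 of the 10 listed immediate early genes, which neurons switch on within minutes of activity, rose. The summed level of the 10 was 170 to 191 CPM in homecage mice and 385 to 455 CPM in SOR mice. *Arc*, the synaptic plasticity gene among them, lay at 85.4 to 97.0 CPM in homecage against 218 to 266 CPM in SOR mice (log2 fold change 1.42, SE 0.065, adjusted p 8.27e-06). The remaining listed gene, *Npas4*, was lower by sign, at 2.25 to 4.96 CPM in homecage against 2.06 to 3.02 CPM in SOR mice. It did not pass in edgeR (log2 fold change -0.49, SE 0.23, adjusted p 0.503).

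The members were measured closely enough to set limits on how far their level in the whole dorsal hippocampus could have moved. Changes confined to a single field or cell type were not measured in these bulk libraries. The median SE of the members' log2 fold changes was 0.068 against 0.12 over all genes. For 23 of the 26, or 88.5%, the whole 95% interval of the fold change lay within 1.4-fold in both directions, against 58.9% of all genes. The 3 exceptions were *Gabrg1*, *Glra3* and *Gabrq*, which stood among the lowest tested members per length. Apart from *Gabrq* the tested members had mean levels of 5.39 to 613 CPM, while all genes reach down to the filter on low counts. No genes of like level were compared. The part of level in the smaller SE and in the higher share of intervals within 1.4-fold was thus not tested. By sign alone 22 of the 26 members were lower in SOR mice, which is 84.6% against 56.2% of all genes. The counts in that split depend on how libraries are scaled, while the median of the members was under that of all genes with both scalings compared here. With upper-quartile scaling the median log2 fold change was -0.05 over the members and -0.02 over all genes. With TMM scaling the same medians were -0.03 and 0.0006, and 17 members were lower and 9 higher. By that scaling 65.4% of the tested members were lower, against 49.8% of all genes. The genes are not independent of each other, and the split was not tested.

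**Figure D1:**
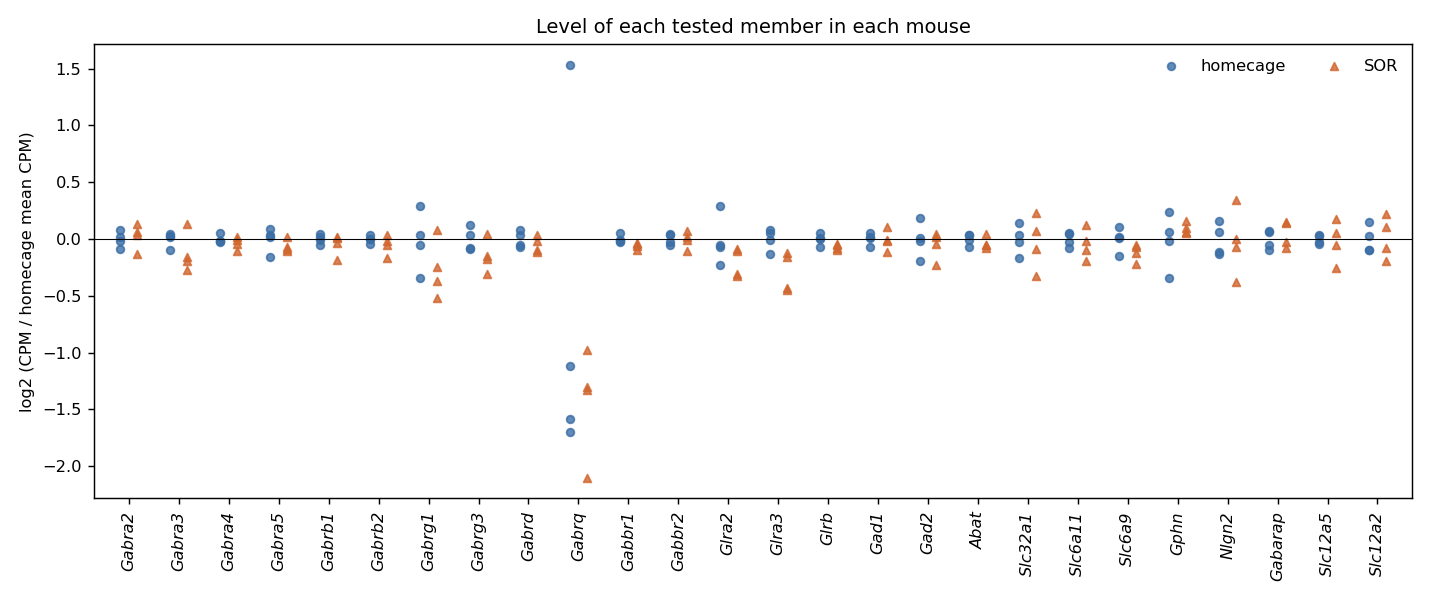
Level of the 26 tested members in each mouse, as log2 of the CPM over the homecage mean of that gene (vertical axis), with 4 homecage mice as circles and 4 SOR mice as triangles. For *Gabrq* homecage 1 stands far above the other libraries. The points of the groups overlap for every gene drawn except *Gabbr1*, and their spread differs between genes.

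**Figure D2:**
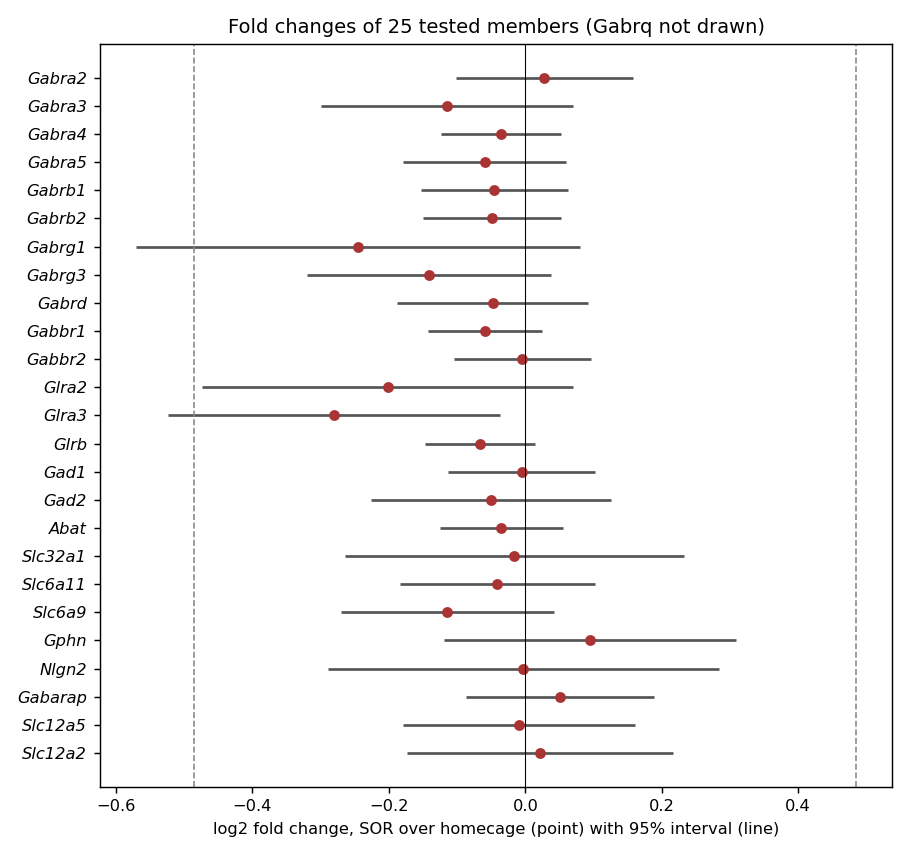
Log2 fold change of SOR over homecage mice for 25 tested members (points) with the 95% interval of the quasi-likelihood fit (lines); the dashed lines mark a 1.4-fold change in either direction. *Gabrq*, with an interval of -2.94 to 0.28, is not drawn, and only the lines of *Gabrg1* and *Glra3* cross a dashed line.

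The level of each member per kb of its exons gives the order in which these genes are represented in the dorsal hippocampus. *Gabbr1*, the GABA-B subunit that binds GABA, stood highest at a mean of 78.9 CPM per kb over the 8 libraries. *Gabra5*, the alpha subunit known for extrasynaptic receptors of hippocampal pyramidal neurons, followed at 55.6 CPM per kb. Then came *Gabarap*, a trafficking protein of GABA-A receptors, at 39.6 CPM per kb, *Glrb* at 36.2 CPM per kb and *Gabbr2* at 32.5 CPM per kb. *Slc12a5* at 28.3, *Gabrb2* at 27.5, *Gad1* at 26.1, *Abat* at 25.0 and *Gphn* at 24.7 CPM per kb stood so close together that their libraries overlapped. The order depends on the length used. Per kb of the longest transcript *Gabbr1* and *Gabra5* again stood first, at 117 and 61.9 CPM per kb, followed by *Glrb* at 55.6, *Gad1* at 55.4 and *Gabarap* at 54.0 CPM per kb, with *Gabbr2* in place 8 at 37.8 CPM per kb. The 10 highest members were the same 10 by either length. At the other end of the tested members, per kb of merged exons, were *Glra3* at 0.585 and *Gabrq* at 0.060 CPM per kb.

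Of the members, 4 did not pass the filter on low counts. *Gabra6*, the alpha subunit known from cerebellar granule cells, had 0 to 2 counts in every library, under the 3 counts that a count of 0 allows. *Gabre*, the epsilon subunit, had 2 to 16 counts. *Glra1*, the alpha subunit of the adult spinal glycine receptor, had 0 to 12 counts. *Slc6a5*, the transporter that marks glycinergic neurons, had 0 to 9 counts, and it was at 0 in homecage 1, homecage 3 and SOR 1. At these counts no difference between the groups was detectable. The floor of 3 counts corresponds to 0.038 to 0.059 CPM and covers counting error only.

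**Figure D3:**
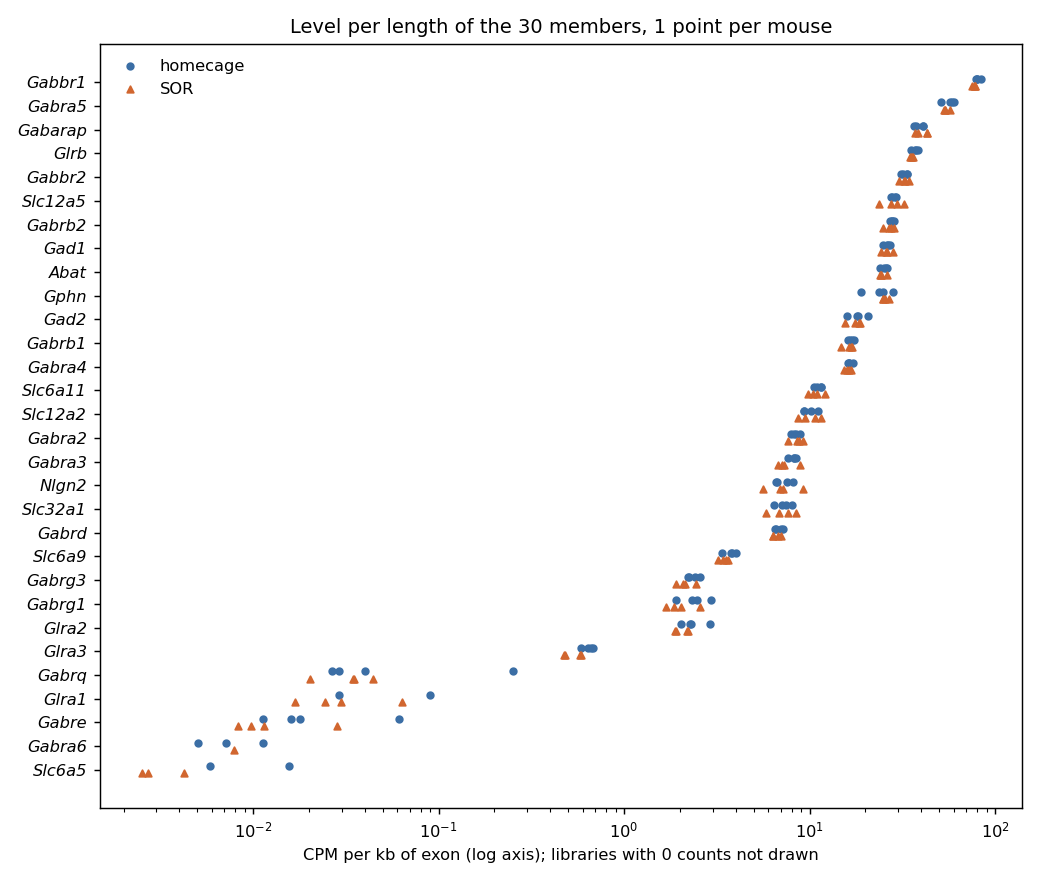
Level of each of the 30 members in CPM per kb of exon (horizontal axis, log scale), with 1 point per mouse (circles homecage, triangles SOR) and genes ordered by their mean. *Gabbr1* stands highest at 78.9, and the 4 members that were not tested lie with *Gabrq* at the low end, under 0.1 on average.

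Among the alpha subunits, which set the kinetics and place of GABA-A receptors, the shares of the members differed between the groups by less than their SD. *Gabra5* made up 63.2% ± 1.63 (SD, n = 4) of the summed level per length of the 5 alpha members in homecage mice and 62.9% ± 1.63 (SD, n = 4) in SOR mice. *Gabra4* made up 18.4% and 18.6%, *Gabra2* 9.35% and 9.87%, and *Gabra3* 9.09% and 8.68%. Other alpha, beta and gamma subunit genes of the mouse are not among the members, so these are shares of the members and not of all receptors. Per longest transcript *Gabra5* made up 58.8% and 58.5%, and *Gabra4* 22.8% and 23.0%.

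*Gabra5* (ENSMUSG00000055078, minus strand of chromosome 7) was counted at 151, 171, 174 and 180 CPM in homecage mice 1 to 4 and at 161, 159, 157 and 171 CPM in SOR mice 1 to 4. The groups overlapped, with homecage 1 the lowest of all 8 libraries (log2 fold change -0.06, SE 0.054, 95% interval -0.18 to 0.06, adjusted p 0.77). *Gabra2*, a synaptic alpha subunit, lay at 60.4 to 67.8 CPM in homecage against 58.5 to 70.1 CPM in SOR mice, with both extremes in the SOR group. *Gabra4*, which pairs with delta subunits in dentate granule cells, lay at 98.4 to 104 and 93.1 to 101 CPM. Its interval of -0.12 to 0.05 was among the narrowest of the set. *Gabra3* was counted at 32.5, 33.1, 29.9 and 32.4 CPM in homecage mice and at 26.5, 28.6, 35.0 and 27.9 CPM in SOR mice. In 3 of the SOR mice it was under every homecage value, and SOR 3 was the highest of all (log2 fold change -0.12, SE 0.083, adjusted p 0.697). Leaving out SOR 3 gave a log2 fold change of -0.21 and an adjusted p of 0.268, the lowest reached by any member under any alternative.

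The beta subunits, which every GABA-A receptor needs, were *Gabrb1* at 222 to 239 CPM in homecage against 204 to 234 CPM in SOR mice, and *Gabrb2* at 173 to 182 and 158 to 182 CPM. For both genes SOR 1 was the lowest library. Per length *Gabrb2* made up 62.6% ± 0.67 of the 2 in homecage and 62.5% ± 0.96 in SOR mice (SD, n = 4), or 72.6% and 72.5% per longest transcript. The gamma subunits were low. *Gabrg3* lay at 26.5 to 30.5 CPM in homecage against 22.7 to 29.0 CPM in SOR mice (log2 fold change -0.14, SE 0.081, adjusted p 0.608). *Gabrg1* was counted at 23.2, 19.5, 15.0 and 18.3 CPM in homecage mice and at 13.3, 16.03, 20.1 and 14.7 CPM in SOR mice. Here SOR 1 was lowest and homecage 1 highest, and the difference of -0.25 (SE 0.15, 95% interval -0.57 to 0.08, adjusted p 0.626) became -0.06 when both of those libraries were left out. *Gabrd*, the delta subunit of extrasynaptic receptors, lay at 18.7 to 20.8 and 18.2 to 20.1 CPM (log2 fold change -0.05, SE 0.063, adjusted p 0.854).

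*Gabrq*, the theta subunit, known from hypothalamus and brain stem more than from hippocampus, differed by library and not by group. It was at 1.34 CPM in homecage 1 and at 0.154, 0.143 and 0.213 CPM in the other homecage mice, against 0.188, 0.108, 0.184 and 0.236 CPM in SOR mice. Homecage 1 thus stood 5.70-fold above the next library, while the other 7 libraries overlapped. The log2 fold change of -1.33 (SE 0.73, adjusted p 0.584) turned to 0.06 without homecage 1. Over the 17421 genes that reached 1 CPM in at least 1 library, *Gabrq* ranked 1 by how far homecage 1 exceeded every other library, a ranking made after its values were seen. *Gabrq* reached 1 CPM in homecage 1 alone, so it entered the ranking only through the value being ranked. *Gabre*, its neighbour on chromosome X, was also highest in homecage 1, at 0.291 CPM against 0.039 to 0.134 CPM in the other 7 libraries. *Gabra3*, which lies between *Gabre* and *Gabrq*, was not: its 32.5 CPM in homecage 1 lay among the other homecage values.

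Markers of tissue next to the hippocampus were examined in homecage 1. Of the 12 thalamus and habenula markers 0 of the 10 tested passed in edgeR (1 at an unadjusted p under 0.05), and their summed level was 266 to 314 CPM in homecage against 257 to 309 CPM in SOR mice, with homecage 1 the highest. In homecage 1, 4 of the 12 were the highest of the 8 libraries, 7 lay between the others and 1, *Adarb1*, was the lowest at 132 CPM against 139 to 153 CPM. The 4 highest, named after their values were seen, were *Prkcd* at 42.0 CPM against 20.7 to 37.8 CPM elsewhere, *Zic1* at 41.9 against 11.8 to 29.9 CPM, *Calb2* at 32.0 against 7.93 to 22.04 CPM, and *Gbx2* at 0.073 against 0 to 0.036 CPM. *Calb2* encodes calretinin and is also one of the interneuron markers. The defining habenular gene *Pou4f1* was at 0 in homecage 1 and at no more than 0.015 CPM in any library. The part of such tissue in the *Gabrq* value was not tested.

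**Figure D4:**
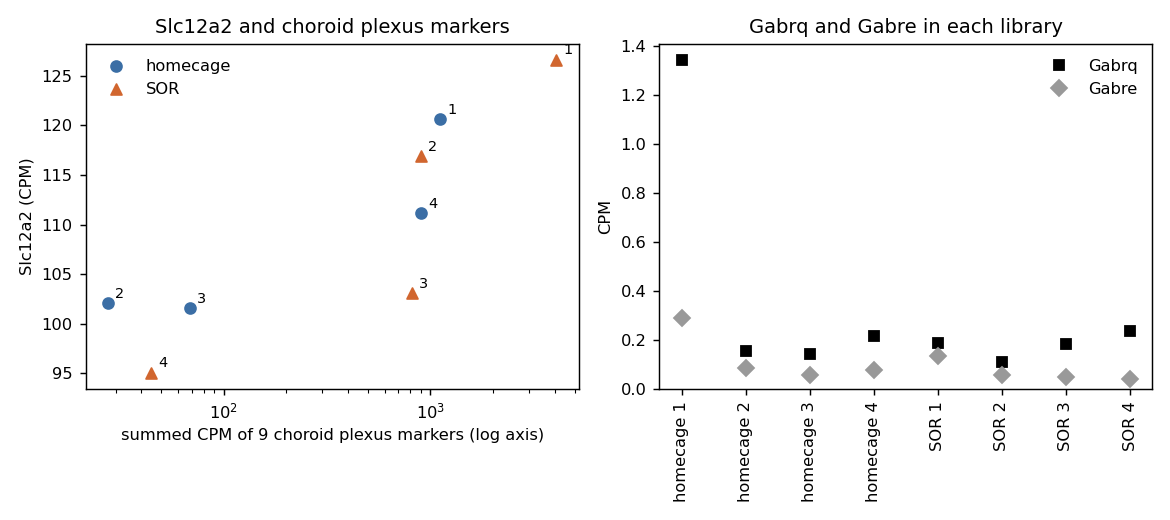
Left, *Slc12a2* in CPM against the summed CPM of 9 choroid plexus markers (log axis) for 4 homecage mice (circles) and 4 SOR mice (triangles), numbered by mouse; right, *Gabrq* (squares) and *Gabre* (diamonds) in CPM in each library. *Slc12a2* is highest in SOR 1, which also has the most choroid plexus marker RNA, and *Gabrq* reaches 1.34 in homecage 1 alone.

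GABA-A subunit genes lie in clusters on the mouse genome (GENCODE M21, GRCm38), and the levels of neighbours were close in some cases and far apart in others. On chromosome 5, *Gabrg1* (70751047 to 70842617), *Gabra2* (70957597 to 71095849), *Gabra4* (71569749 to 71658308) and *Gabrb1* (71658113 to 72149037) follow each other. Their levels per length were 2.23, 8.46, 16.3 and 16.4 CPM per kb, and their log2 fold changes were -0.25, 0.03, -0.04 and -0.05. On chromosome 7, *Gabrg3* at 2.24 CPM per kb lies 20484 bases from *Gabra5* at 55.6 CPM per kb. On chromosome 11, *Gabra6*, which was at the floor, lies 98685 bases from *Gabrb2* at 27.5 CPM per kb. *Gabra4* and *Gabrb1* overlap on opposite strands by 46 exon bases, and whether the counting used strand is not given in the sources used here.

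The GABA-B receptor needs both of its subunits, and *Gabbr1* was the only tested member whose groups did not overlap. It was counted at 614, 618, 621 and 648 CPM in homecage mice and at 583, 609, 600 and 608 CPM in SOR mice. Every SOR value was under every homecage value, with 625 ± 15.7 against 600 ± 11.9 CPM (SD, n = 4). That is 3.85% of the tested members, while 6.94% of all tested genes did not overlap. The difference was small (log2 fold change -0.06, SE 0.038, 95% interval -0.14 to 0.03) and did not pass the adjusted threshold (edgeR, adjusted p 0.652). The exact two-sided permutation test gave p = 0.0286, the smallest that 4 against 4 mice can give. Groups without overlap always give this p, so it restates the lack of overlap, and it was not adjusted over the members. With TMM scaling the values were 613, 614, 617 and 640 CPM in homecage against 597, 606, 600 and 614 CPM in SOR mice, and the groups overlapped. *Gabbr2* was at 217 ± 7.3 CPM in homecage against 217 ± 11.1 CPM in SOR mice (log2 fold change -0.004, SE 0.045, SD with n = 4).

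Among the glycine receptor subunits the beta subunit *Glrb*, which anchors the channel to gephyrin, made up 92.4% ± 0.96 of the summed level per length of the 4 members in homecage and 93.1% ± 0.64 in SOR mice (SD, n = 4). The alpha subunits that bind glycine made up the rest, mostly *Glra2* at 5.89% and 5.41%. *Glrb* lay at 165 to 179 CPM in homecage against 161 to 168 CPM in SOR mice, with 1 homecage mouse inside the SOR range (log2 fold change -0.07, SE 0.037, adjusted p 0.586). *Glra2* lay at 6.36 to 9.14 and 5.93 to 7.002 CPM. Its log2 fold change was -0.20 (SE 0.12, adjusted p 0.631), and homecage 1 was again the highest library.

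*Glra3*, an alpha subunit of low level, had the lowest p of the set. It was counted at 6.12, 5.87, 6.26 and 5.38 CPM in homecage mice and at 4.40, 5.30, 5.42 and 4.34 CPM in SOR mice, from 221 to 429 counts per library. SOR 1 and SOR 4 were the lowest, and SOR 3 stood just above homecage 4, so that the groups overlapped in that pair alone. The log2 fold change was -0.28 (SE 0.11, 95% interval -0.52 to -0.04), with an unadjusted p of 0.028 and an adjusted p of 0.432 in the quasi-likelihood test over 22018 genes. The exact permutation test gave p = 0.0571. Its sign was negative under every alternative, with log2 fold changes between -0.34 and -0.22, and its adjusted p lay between 0.281 and 0.637.

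Transcription factors of the EGR family are themselves immediate early genes, and *Egr1* (log2 fold change 1.09, SE 0.16, adjusted p 0.0212) and *Egr2* (log2 fold change 2.75, SE 0.22, adjusted p 0.000466) rose in SOR mice. Promoter windows of 250 bases before to 50 bases after the start were found in RefSeq (GRCm38.p6) for 26 of the 30 members, with 34 windows in all. No window was found for *Gabrd*, *Abat*, *Slc12a2* and *Glra1*. On either strand the EGR core GCGGGGGCG or GCGTGGGCG was present in 2 of the 34 windows, or 5.88%, against 3.47% of all 32851 windows. The 2 were those of *Gad1* and *Glra3*. They are shown from 90 bases before the start to 10 after it, because both hold the EGR core close to the start. Capitals mark the core, which reads on the minus strand here.

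*Gad1* promoter, chr2:70562039-70562138, plus strand: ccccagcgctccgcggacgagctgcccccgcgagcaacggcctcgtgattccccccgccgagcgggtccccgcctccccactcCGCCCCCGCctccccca
*Glra3* promoter, chr8:55940328-55940427, plus strand: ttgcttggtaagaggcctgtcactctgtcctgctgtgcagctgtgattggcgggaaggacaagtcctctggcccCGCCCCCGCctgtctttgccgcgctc

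The core begins 7 bases before the RefSeq start of the *Gad1* window and 16 bases before that of the *Glra3* window. In GENCODE M21 the *Gad1* gene begins at 70553072, upstream of the window shown. The log2 fold changes of *Gad1* and *Glra3* were -0.01 and -0.28, and neither passed the adjusted threshold. The full cAMP response element TGACGTCA was present in 0 of the 34 windows, against 1.79% of all windows. Its core TGACG was present in 6 of 34, or 17.6% against 20.8%, those of *Gabrb2*, *Gad2*, *Glrb*, *Nlgn2*, *Slc6a5* and *Slc6a9*. The AP-1 letters TGANTCA were present in 2, or 5.88% against 7.81%, those of *Slc12a5* and *Slc6a5*. Genes of the AP-1 family rose as well, with log2 fold changes of 1.89 for *Fos* (SE 0.21), 1.84 for *Fosb* (SE 0.18) and 0.75 for *Junb* (SE 0.082), at adjusted p-values from 0.00199 to 0.00477 in edgeR. The log2 fold changes of the tested members with TGACG or TGANTCA lay between -0.11 and -0.003. A match is a description of letters and not of binding.

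The enzymes that make GABA did not differ by more than the spread between mice. *Gad1*, the cytosolic glutamate decarboxylase whose transcript is known to vary with activity, was counted at 207, 190, 202 and 200 CPM in homecage mice and at 199, 185, 197 and 215 CPM in SOR mice. The lowest and the highest value were both in SOR mice, and the 95% interval of the log2 fold change was -0.11 to 0.10. *Gad2*, the synaptic form, lay at 93.6 to 121 CPM in homecage against 91.5 to 110 CPM in SOR mice (log2 fold change -0.05, SE 0.079, adjusted p 0.884). *Abat*, the transaminase that degrades GABA, lay at 187 to 202 CPM in homecage against 186 to 202 CPM in SOR mice (log2 fold change -0.03, SE 0.041, adjusted p 0.833). *Slc32a1*, the vesicular transporter that loads GABA and glycine, was counted at 22.4, 19.9, 18.0 and 20.8 CPM in homecage mice and at 16.2, 21.3, 23.7 and 19.1 CPM in SOR mice. The SOR mice held both extremes, and the 95% interval was -0.26 to 0.23. On the other strand 24.9% of its exon bases are shared with *Gm14205*, a gene with a mean of 0.009 CPM.

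Bulk tissue cannot tell fewer cells of a type from less RNA per cell, so the interneuron markers are given beside these genes. Of the 28 tested markers 11 were higher and 17 lower in SOR mice, 0 passed in edgeR and 0 had an unadjusted p under 0.05. The summed level of the list was 1152 to 1212 CPM in homecage against 1088 to 1223 CPM in SOR mice. SOR 1 was the lowest library of that sum. *Prox1*, which is also one of the dentate granule markers, was itself lowest in SOR 1, at 78.6 CPM against 94.0 to 118 CPM elsewhere. *Pvalb* lay at 20.0 to 24.4 and 21.2 to 26.2 CPM and *Sst* at 114 to 134 and 116 to 140 CPM in homecage against SOR mice, which places the defining interneuron types in every library.

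The plasma membrane transporters end inhibition by uptake. *Slc6a11*, the astrocytic GABA transporter among the members, lay at 53.3 to 58.2 CPM in homecage against 49.3 to 61.2 CPM in SOR mice (log2 fold change -0.04, SE 0.065, adjusted p 0.882). *Slc6a9*, the glial glycine transporter, was counted at 17.4, 19.4, 20.7 and 19.5 CPM in homecage mice and at 18.3, 18.6, 16.6 and 17.7 CPM in SOR mice. In 3 of 4 homecage mice it was above every SOR value, with homecage 1 the exception (log2 fold change -0.11, SE 0.071, adjusted p 0.636). *Ccdc24*, at a mean of 1.13 CPM, covers 27.8% of its exon bases on the other strand. The 10 astrocyte markers summed to 4513 to 4710 CPM in homecage against 4462 to 4824 CPM in SOR mice, and 0 passed in edgeR (1 at an unadjusted p under 0.05).

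The proteins that hold receptors at inhibitory synapses had the largest positive difference of the set. *Gphn*, which encodes gephyrin, was counted at 93.4, 106, 70.7 and 88.5 CPM in homecage mice and at 93.0, 93.6, 96.0 and 100 CPM in SOR mice. The 4 SOR mice lay close together within the wider homecage range, and homecage 3 was the lowest library. The log2 fold change was 0.09 (SE 0.097, 95% interval -0.12 to 0.31, adjusted p 0.801), and it was -0.002 without homecage 3. *Nlgn2*, the adhesion protein of inhibitory synapses, was counted at 46.8, 43.8, 38.8 and 38.2 CPM in homecage mice and at 32.3, 39.97, 53.2 and 41.9 CPM in SOR mice. Its coefficient of variation was 20.6% over the SOR mice, with SOR 1 the lowest and SOR 3 the highest library, against 9.89% over homecage mice. *Gabarap* lay at 67.0 to 75.3 and 68.1 to 79.3 CPM (log2 fold change 0.05, SE 0.062, adjusted p 0.843).

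The group means of the chloride cotransporters lay close together, and both genes varied with the library. *Slc12a5*, which encodes the neuronal chloride exporter KCC2, was counted at 217, 215, 205 and 208 CPM in homecage mice and at 177, 219, 239 and 204 CPM in SOR mice. Its group means were 211 ± 5.38 and 210 ± 26.3 CPM (SD, n = 4), and SOR 1 and SOR 3 were the lowest and the highest of the 8. *Slc12a2*, which encodes the importer NKCC1, was counted at 121, 102, 102 and 111 CPM in homecage mice and at 127, 117, 103 and 95.03 CPM in SOR mice. The groups overlapped over nearly the whole range (log2 fold change 0.02, SE 0.088, 95% interval -0.17 to 0.22, adjusted p 0.963).

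*Slc12a2* is also known to be abundant in the choroid plexus, the secretory epithelium of the ventricle beside the hippocampus. The 9 choroid plexus markers summed to 1117, 27.6, 68.5 and 899 CPM in homecage mice and to 4064, 901, 810 and 44.4 CPM in SOR mice. All 9 were higher in SOR mice, with 0 past the threshold in edgeR and 0 at an unadjusted p under 0.05 (median log2 fold change 1.26), and *Ttr*, the most abundant of them, reached 3710 CPM in SOR 1. The 3 libraries with the lowest marker sums, homecage 2, homecage 3 and SOR 4, had the lowest *Slc12a2* of the 8 at 95.03 to 102 CPM, and SOR 1 with the highest sum had the highest at 127 CPM. Among the 5 libraries with higher sums *Slc12a2* had the same order as the marker sum, and among the 3 with lower sums it did not. The marker sum and *Slc12a2* were 1 of 8 pairs examined over the 8 mice, and the only 1 with an adjusted p under 0.05 by either measure. Spearman's rho was 0.93 (exact permutation p 0.00223, adjusted 0.0179), and Pearson's r was 0.86 (exact permutation p 0.00751, adjusted 0.060) and 0.81 without homecage 2 and SOR 4. The pooled values span a gap between sets of 3 and 5 libraries, and either set is too small for a correlation of its own. The share of choroid plexus RNA in the *Slc12a2* level was not tested. Without SOR 1 the log2 fold changes were -0.05 for *Slc12a2*, 0.06 for *Slc12a5* and 0.10 for *Nlgn2*.

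Ratios of 2 members within a library do not depend on scaling, and 9 such ratios were compared with the exact two-sided permutation test. The ratio of *Slc12a5* to *Slc12a2* counts, an export to import ratio for chloride, was 1.80, 2.11, 2.02 and 1.87 in homecage mice and 1.397, 1.88, 2.32 and 2.14 in SOR mice. SOR 1 was the lowest and SOR 3 the highest, so the SOR range enclosed the homecage range (difference in mean log2 ratio -0.03, 95% interval -0.45 to 0.38). The ratio of *Gad1* to *Gad2* was 1.88 ± 0.20 in homecage and 1.94 ± 0.22 in SOR mice, and that of *Gabbr1* to *Gabbr2* was 2.88 ± 0.080 and 2.77 ± 0.11 (SD, n = 4). The narrowest 95% intervals of the log2 difference were those of *Gabbr1* to *Gabbr2* at -0.14 to 0.03 and of *Gabrb1* to *Gabrb2* at -0.09 to 0.09. The largest difference in size was that of *Glrb* to *Gphn* at -0.18 (95% interval -0.51 to 0.16). For all 9 ratios the groups overlapped, and the exact permutation p adjusted over the 9 was 0.943 throughout.

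**Figure D5:**
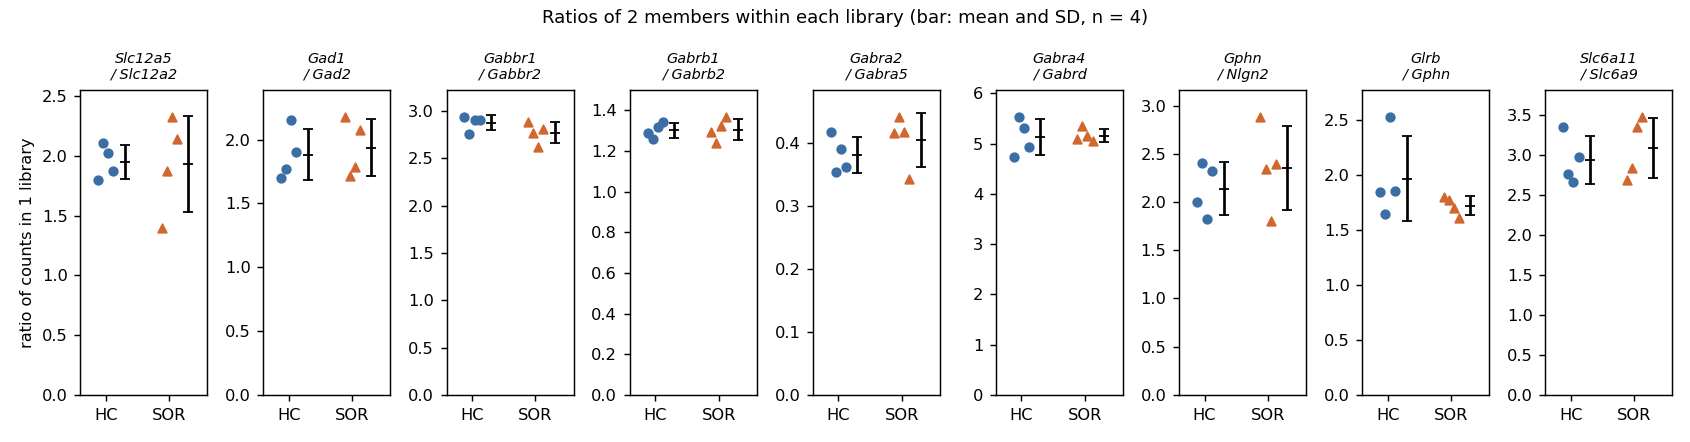
Ratio of the counts of 2 members within each library (vertical axes, from 0) for 9 fixed pairs, with homecage mice (HC) as circles, SOR mice as triangles, and the mean with its SD (n = 4) beside each group. In every panel the groups overlap, and the *Slc12a5* to *Slc12a2* ratio is lowest in SOR 1 at 1.397.

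Of the 8 pairs compared over the mice by correlation, the 7 other than the choroid plexus markers with *Slc12a2* had adjusted exact permutation p-values of at least 0.215. *Gabra3* and *Glra3*, which were both lowest in SOR 1 and SOR 4, had a Pearson r of 0.66 (exact permutation p 0.081, adjusted 0.215) and a Spearman rho of 0.64 (exact permutation p 0.096, adjusted 0.385), and r was 0.64 without SOR 1 and SOR 3. The sign differed between the groups, with r of -0.53 over the 4 homecage mice and 0.76 over the 4 SOR mice. *Gabre* and *Gabrq* had an r of 0.79 (exact permutation p 0.064, adjusted 0.215) and a rho of 0.24 (exact permutation p 0.582, adjusted 0.665). That relation rested on homecage 1 and SOR 1, since r was -0.18 without them. *Gad1* and *Gad2* had an r of -0.03 (exact permutation p 0.959, adjusted 0.959) and a rho of -0.21 (exact permutation p 0.619, adjusted 0.665), and their r was 0.16 without SOR 2 and SOR 4. The last 4 pairs were *Gad1* with *Slc32a1*, *Gabbr1* with *Gabbr2*, *Gabra4* with *Gabrd*, and *Slc6a11* with the astrocyte marker sum. Their r lay between -0.17 and 0.45 and their rho between -0.24 and 0.40, with adjusted exact permutation p-values of at least 0.504 for r and of 0.665 for rho. For *Gabbr1* and *Gabbr2* r turned from 0.45 to -0.54 without homecage 4 and SOR 1.

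The other genes of these pathways gave the same count of calls. Of 26 tested partners of inhibitory receptors and synapses, 11 were higher and 15 lower in SOR mice and 0 passed, with 2 at an unadjusted p under 0.05 and a lowest adjusted p of 0.324 in edgeR. Of 15 genes of GABA and glycine metabolism, 10 were higher and 5 lower, 0 passed, and 0 had an unadjusted p under 0.05. Of 16 further genes of chloride and bicarbonate balance, 7 were higher and 9 lower, 0 passed, and 0 had an unadjusted p under 0.05. Their median log2 fold changes were -0.02, 0.06 and -0.02, beside -0.02 over all genes.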

How the data were processed

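Dorsal hippocampi of 4 homecage and 4 SOR mice were sequenced as paired-end RNA libraries. The methods name a stranded total RNA kit with ribosomal RNA depletion, while the labels name polyA RNA. The authors aligned reads with STAR to mm10 under bcbio-nextgen. What the authors deposited are estimated counts per gene, summarized with tximport and not normalized, and 52.6% are not whole numbers. The methods name featureCounts, and the quantifier behind the summary is not given in the sources used here. The spatial and single-nucleus samples were not analysed here.

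Values were rounded to whole counts, filterByExpr removed genes of low count, and upper-quartile factors scaled the libraries. Both groups were compared by the quasi-likelihood F test in edgeR 4.0.16 (R 4.3.3), and p-values were adjusted by Benjamini and Hochberg's method across 22018 genes. A call needed an adjusted p below 0.05 together with a change of more than 1.4-fold. Separate mice were taken as replicates. Their counts differed by 12.1 to 55.1 chi-square per degree of freedom between libraries of 1 group, so no library was counted as a copy. *Rn7s1* and *Rn7s2* held 7.92 to 13.2% of the counts, and the biological coefficient of variation was 14.1%. Single values and within-library ratios were compared with the exact two-sided permutation test over 70 assignments. Levels between genes were compared per kb of merged exon length (GENCODE M21). Intervals of fold changes are from the quasi-likelihood fit, and those of ratios from the pooled SD of log2 ratios. The scripts were tested on simulated data.

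The alternatives changed the scaling to TMM, RLE or library size, or used other settings: leaving out *Rn7s1* and *Rn7s2*, no filter, more than 5 counts in 2 samples, the likelihood ratio test, DESeq2 1.42.0, limma-voom (limma 3.58.1), 1 to 3 RUVs factors coded for this purpose, the replicate number as a block, no fold threshold and each mouse left out. Leaving out homecage 1 and SOR 1 together was chosen after seeing the data. The members, gene lists, ratios, pairs and motifs were chosen with earlier results of these data known. All members are described. From other lists, genes are named where a result turns on them. Same-numbered mice did not deviate together (r from -0.10 to 0.15), so the numbers were not taken as pairs.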

Additional observations from a re-analysis of the deposited data

Results flagged for a closer look

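Of 78 sets of 4 values (each of the 30 members and 9 ratios in each group), 6 held a mouse far from the other 3 by Dixon's criterion, which chance alone gives in about 1 set in 20. Among homecage mice, *Gabrq* was highest in homecage 1 at 1.34 CPM, and *Gabre* was highest in homecage 1 at 0.291 CPM. *Gabre* was also highest in SOR 1 among SOR mice, at 0.134 CPM. *Gabra6* reached 0.0196 CPM in SOR 4, from 1 count against 0 in the other SOR mice. *Gabra4* was highest in homecage 2 at 104 CPM, and the *Gabbr1* to *Gabbr2* ratio was lowest in homecage 2 at 2.76.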

How the results depend on the processing

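Under every alternative run, 0 members passed an adjusted p of 0.05, and the lowest adjusted p of any member was 0.268. Of 572 member fold changes recomputed under an alternative, 506 kept their sign and 66 did not, in 12 of the 26 tested members, and 14 members kept their sign throughout. The causes of the sign changes were not tested. Over all genes the counts of calls, 33 higher and 5 lower, became 69 and 36 with the likelihood ratio test, 82 and 32 with DESeq2, and 60 and 8 without a fold threshold. Genes called lower numbered 8 without a filter and 8, 10 and 11 with 1, 2 and 3 RUVs factors. The replicate block called 27 higher and 3 lower, no member among them. With 1 mouse left out the counts were 20 to 34 higher and 2 to 5 lower. Members higher in SOR by sign, 4 as reported, numbered 9 with TMM, RLE or DESeq2, 7 with library size scaling, 7 with 2 or 3 RUVs factors, 10 without homecage 1 and SOR 1 together, and 3 to 10 with 1 mouse left out. Over the same left-out mice, members lower by sign numbered 16 to 23.

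All members that changed sign had small log2 fold changes apart from *Gabrq*. With TMM scaling the values turned to 0.015 for *Gabbr2*, 0.015 for *Gad1*, 0.0022 for *Slc32a1*, 0.015 for *Nlgn2* and 0.0091 for *Slc12a5*. RLE scaling gave 0.017, 0.016, 0.0036, 0.016 and 0.010 for the same genes, and DESeq2 gave 0.016, 0.016, 0.0035, 0.016 and 0.010. Library size scaling gave 0.0020 for *Gabbr2*, 0.0014 for *Gad1* and 0.0016 for *Nlgn2*, and the filter of more than 5 counts gave 0.00062 for *Gabbr2* and 0.0013 for *Nlgn2*. With 2 RUVs factors *Gabbr2* was at 0.0046, *Slc32a1* at 0.0069, *Nlgn2* at 0.023, *Slc12a5* at 0.0093 and *Slc12a2* at -0.00092. With 3 they were at 0.0053, 0.0036, 0.019, 0.0089 and -0.0020. Without homecage 1 and SOR 1 together, the values were 0.025 for *Gabrq*, 0.0076 for *Gabbr2*, 0.0094 for *Gad1*, 0.068 for *Gad2*, 0.12 for *Slc32a1*, 0.021 for *Slc6a11*, 0.16 for *Nlgn2*, -0.014 for *Gabarap*, 0.075 for *Slc12a5* and -0.00092 for *Slc12a2*.

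With each mouse left out in turn, log2 fold changes ranged from -0.0079 to 0.073 for *Gabra2*, -1.63 to 0.061 for *Gabrq*, -0.031 to 0.027 for *Gabbr2*, -0.048 to 0.028 for *Gad1* and -0.11 to 0.018 for *Gad2*. They ranged from -0.11 to 0.074 for *Slc32a1*, -0.10 to 0.0047 for *Slc6a11*, -0.0021 to 0.18 for *Gphn*, -0.14 to 0.10 for *Nlgn2*, -0.079 to 0.063 for *Slc12a5* and -0.053 to 0.083 for *Slc12a2*. The log2 ratio differences of 4 pairs changed sign, with ranges of -0.13 to 0.12 for *Slc12a5* to *Slc12a2*, -0.018 to 0.11 for *Gad1* to *Gad2*, -0.019 to 0.028 for *Gabrb1* to *Gabrb2* and -0.026 to 0.048 for *Gabra4* to *Gabrd*.

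Depth limits the 4 members that were not tested and *Gabrq*, which rest on few counts. With 4 mice a group, the intervals of *Gabrg1*, *Glra3* and *Gabrq* reach past 1.4-fold. The smallest p of the exact permutation test is 0.0286.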
